A study of Caenorhabditis elegans with 12 samples.

Results

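Small RNAs assigned to 300 spermatogenic genes are described here, namely the genes labelled spermatogenic in the deposited tables to which none of the Argonaute labels WAGO, CSR, PRG1, ALG or ERGO was attached. Of 19083 genes with siRNA reads, 1179 carried the spermatogenic label alone and lay outside the families that were set aside (histone, major sperm protein, ribosomal protein, F-box, MATH and BATH domain, linc and nuclear hormone receptor genes). The 300 genes were selected on their siRNA level, as those with the highest mean in the 2 PIR-1 control libraries of the ATTF-6 depletion experiment. That mean was 3.85 normalised counts for nep-2 and 3.87 for C47E8.10, the last genes inside, and 3.83 for both acbp-4 and C35C5.10, the first genes outside. Because those control libraries selected the genes, each value, p-value and call from the depletion comparison below is a description. The binding-site deletion strains and their parent played no part in the choice.

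Small RNAs were cloned from whole synchronized adults grown at 20 °C. ATTF-6-depleted animals carried GFP::tev::aid::attf-6, a degron-tagged allele, together with wrdSi51, a transgene that drives the auxin receptor TIR1 from the mex-5 promoter in the germ line. Their controls carried wrdSi51 alone, and both strains were kept from the L4 stage on 4 mM auxin, through which TIR1 marks degron-tagged proteins for destruction. The ΔPeak1 and ΔPeak2 strains lacked single ATTF-6 binding sites on chromosome IV (13709294 to 13709476 and 14387943 to 14388536). They were made in an attf-6::3xflag strain, which served as their control and is called the parent strain here, and none of these animals received auxin. Each of these 5 groups has 2 libraries made after treatment with PIR-1, a polyphosphatase that makes triphosphorylated small RNAs clonable. The ATTF-6-depleted and control groups have 1 further library each made by the CIP-TAP procedure, which favours capped RNAs. The study calls the replicates of the depletion experiment biological. No source used here says whether libraries of a group came from separate cultures, so p-values measure the spread between these libraries, part of which may be technical.

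In C. elegans, siRNAs antisense to germline messages are made by RNA-dependent RNA polymerases on the target transcript and are loaded into Argonautes of the WAGO or CSR-1 branch. In the spermatogenic germ line a separate class, the 26G siRNAs, is bound by the Argonautes ALG-3 and ALG-4 and acts on genes used to make sperm. Hermaphrodites make sperm as larvae and then switch to oocytes, so whole adults hold stored sperm but few spermatogenic cells. Genes with the spermatogenic label and no Argonaute label are therefore ones that this labelling scheme places in neither branch.

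Counts summed to between 15454564 and 31931330 per PIR-1 library. Values below are normalised counts, that is, read counts scaled by a total that the authors took for each library. A gene was called at an adjusted p under 0.05 in edgeR's quasi-likelihood test across all small RNA features. The 300 genes held between 26523 and 93014 reads in a PIR-1 library.

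The 300 genes were 257 protein-coding genes and 43 pseudogenes. Pseudogenes made up 14.3% of them, against 13.2% of the 1179 genes they were taken from and 7.11% of all genes with siRNA reads. Their spread over the chromosomes followed that of spermatogenic genes in general, with 53 on chromosome I, 55 on II, 53 on III, 63 on IV and 60 on V. The X chromosome held 16 of them, or 5.33%, against 11.96% of the 1179 genes and 13.6% of all genes with siRNA reads. The 300 oogenic genes taken by the same rule gave an X share of 42.3%. Exons of 83 of the 300 genes overlapped exons of another gene on either strand, and 18 genes had a fractional read count in at least 1 library, so reads of those genes may be shared with a neighbour or a copy.

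A few genes held most of the siRNAs. The mean level in the control libraries had a median of 8.96 and a maximum of 1294 normalised counts, with 21 genes over 100 and 168 genes at or under 10. The 12 highest genes accounted for 40.5% and 41.3% of the summed siRNA level in the depleted libraries and for 52.6% and 52.4% in the controls.

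Summed over the 300 genes, siRNAs were at 8108 and 6420 normalised counts in the depleted libraries, against 11837 and 10498 in the controls. The means were 7264 ± 1194 and 11168 ± 947 (SD, n = 2 each), 1.54-fold lower after depletion, with no overlap between the groups. The whole siRNA class was 1.51-fold lower, at 623689 ± 111467 in depleted animals and 941052 ± 80941 in controls, and the 300 genes held 1.15% and 1.18% of siRNA reads in the depleted libraries and 1.19% in each control library. In the deletion experiment the sum was 11077 and 11002 in ΔPeak1, 9880 and 9335 in ΔPeak2, and 10273 and 10564 in the parent strain. ΔPeak1 exceeded the parent by 1.06-fold and ΔPeak2 was 1.08-fold lower, and in both cases the libraries did not overlap. The exact two-sided permutation test gave p = 0.333 for each strain, the smallest value that 2 libraries against 2 allow.

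**Figure D1:**
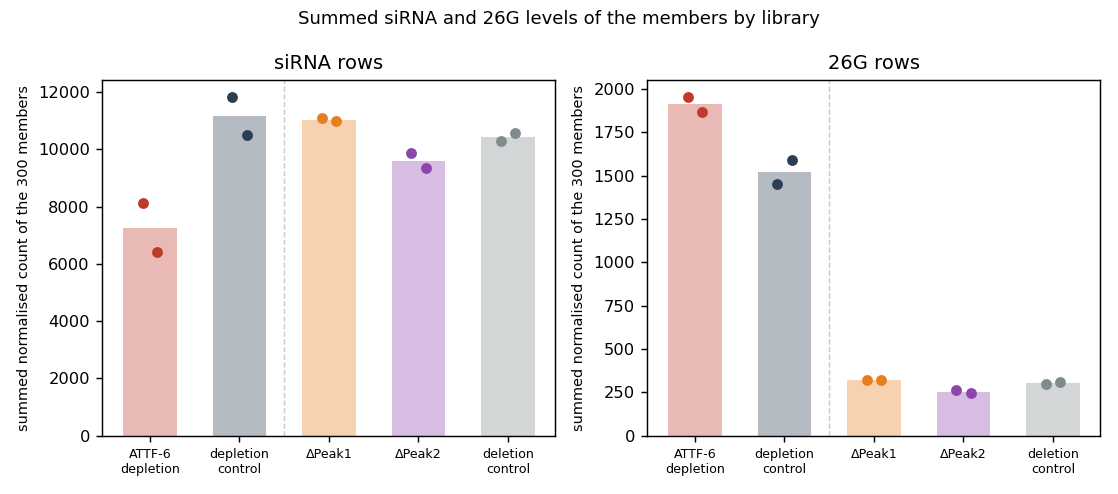
Summed normalised counts of siRNA rows (left) and 26G rows (right) over the 300 genes, with a point for each PIR-1 library and a bar for the group mean. siRNA sums lie between 6420 and 11837 in every library, whereas 26G sums are 1454 or more in the auxin-treated animals and 320 or less in the deletion experiment.

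Whole animals were extracted, and the study describes germline atrophy after depletion, so fewer germ cells and fewer siRNAs per germ cell cannot be told apart. siRNA reads do not measure transcripts and give no direct check of cell type. siRNAs to pgl-1 and glh-1, genes of germ granule proteins, summed to 253 and 172 normalised counts in depleted libraries, against 948 and 840 in controls. siRNAs to the 28 major sperm protein genes summed to 26.2 and 22.3, against 13.5 and 8.09. Those to the yolk protein genes vit-1 to vit-6, which are expressed in the intestine, summed to 44.6 and 23, against 14.3 and 11. In the deletion experiment the yolk protein sums were 43.9 and 41.9 in ΔPeak1, 70.8 and 68.9 in ΔPeak2, and 28.1 and 29.8 in the parent strain. siRNAs to the muscle myosin genes unc-54 and myo-3 summed to 23.3 and 14.8 in depleted libraries, against 16.7 and 14.6 in controls, and these groups overlapped. The part of these shifts in the changes described below was not tested.

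The question of the depletion experiment is which small RNAs depend on ATTF-6 in the germ line. Of the 300 genes, 135 were lower and 46 were higher after depletion, a share of 60.3%, while 67.3% of all features tested were called (54.6% lower and 12.7% higher). The median log2 fold change was -0.63 for the 300 genes and -1.17 for all siRNA rows tested. The selection on the control libraries bears on this direction, and nothing is read from these counts. Without control replicate 1 or 2 the number higher was 30 or 28. Over all 868 genes tested that carry the same labels, with no selection by level, 178 were lower and 246 higher, with a median of 0.32. Spermatogenic genes with the ALG label had a median of 0.53, and the oogenic genes without an Argonaute label had a median of -1.47. The direction of the members depends on the scaling. TMM scaling moved the median of all siRNA rows by over 1 log2 unit, to -0.05, and gave a median of 0.49 for the 300 genes, with 61 lower and 126 higher, where 38.3% of all features were lower and 30.2% higher.

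**Figure D2:**
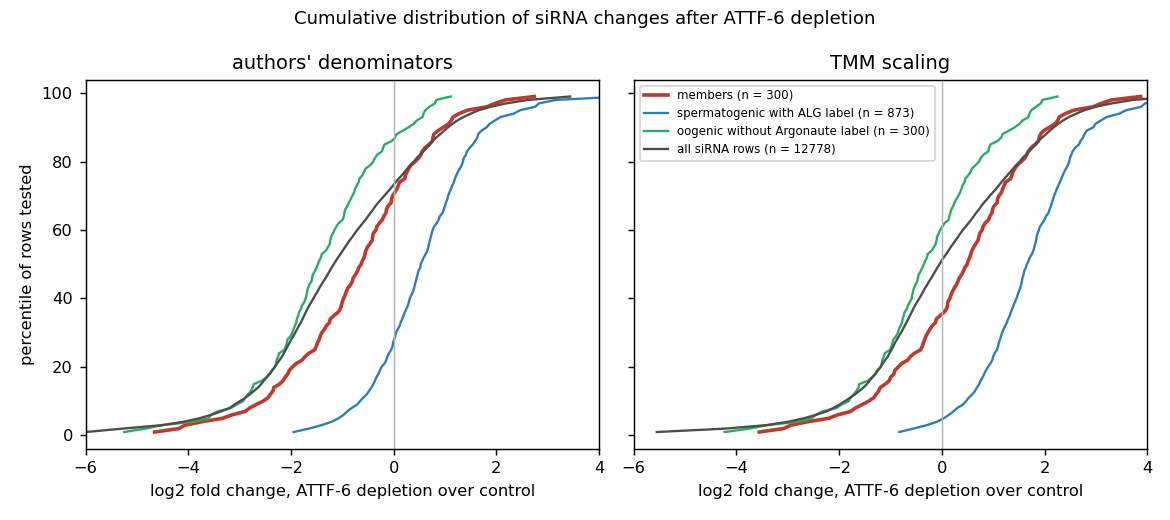
Cumulative distributions of edgeR log2 fold changes (ATTF-6 depletion over control) in 4 sets of siRNA rows, with the authors' denominators (left) and with TMM scaling (right). The curve of the 300 genes lies between those of the oogenic genes and of the spermatogenic genes with the ALG label in both panels, with its median at -0.63 on the left and at 0.49 on the right.

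Genes of the same labels were also ranked without the control libraries. The 300 with the highest mean in the parent strain of the deletion experiment shared 223 genes with the set described here. A similar split is thus largely built in, and this choice is no independent check of the selection. Of the 298 that could be tested, 123 were lower and 53 higher after depletion, with a median of -0.59. Among all features 54.6% were lower and 12.7% higher. Depleted animals can also be set against the parent strain, from which they differ in genotype and auxin as well. The 300 genes were then 100 lower and 107 higher with a median of 0.13, while 55.0% of all features were lower and 21.4% higher.

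The most abundant siRNAs belonged to timm-17B.2, a homologue of an import subunit of the inner mitochondrial membrane (chromosome IV, 8396648 to 8397954 of WBcel235). They were at 504 and 403 normalised counts in depleted animals, against 1353 and 1234 in controls, a log2 fold change of -1.51 ± 0.17 (SE, n = 2 each, edgeR adjusted p = 1.18e-09). The rank of timm-17B.2 rests on these same controls, so this p-value is a description. R11A8.1, also on chromosome IV, was at 327 and 246, against 1215 and 1146, or 4.12-fold lower. The size of both falls depends on the scaling. With TMM scaling the log2 fold change was -0.38 for timm-17B.2 (edgeR adjusted p = 0.0419) and -0.92 for R11A8.1. DESeq2 gave -0.47 for timm-17B.2. Both genes were high in each library of the deletion experiment, between 1323 and 1626 normalised counts.

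Among the 12 highest genes, 10 were lower after depletion, W03C9.1 was higher, and F43E2.6 did not pass the test. W03C9.1 had 781 and 621 normalised counts in depleted animals, against 274 and 245 in controls (log2 fold change 1.43 ± 0.18, SE). F43E2.6 had 346 and 383, against 285 and 260 (edgeR adjusted p = 0.112), and it was called higher with TMM scaling, with DESeq2, with all 10 libraries in 1 fit and with the replicate number as a block (adjusted p = 0.0142). The larger falls were those of C24H12.6, at 23.8 and 14.5 against 192 and 149, R03D7.2, at 37.6 and 30.3 against 265 and 227, and F59E12.3, at 35.3 and 18.6 against 160 and 156. Set against the parent strain, none of these 3 was called, with log2 fold changes of -0.41, -0.14 and 0.33. Y54G2A.36 was at 53.1 and 39.7, against 256 and 215, but 47.7% of its exon length is antisense to a pseudogene. The pseudogene Y32F6A.6 was at 174 and 139, against 481 and 446. Y50D4A.6, C50C3.19 and ZK973.8 were lower with the authors' denominators and higher with TMM scaling, where ZK973.8 was called in the opposite direction. ZK973.8 was not called without control replicate 1, control replicate 2 or depleted replicate 2 (edgeR adjusted p = 0.405, 0.167 and 0.179) or without a filter (0.0732), and Y50D4A.6 was not called without control replicate 1 (0.123).

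**Figure D3:**
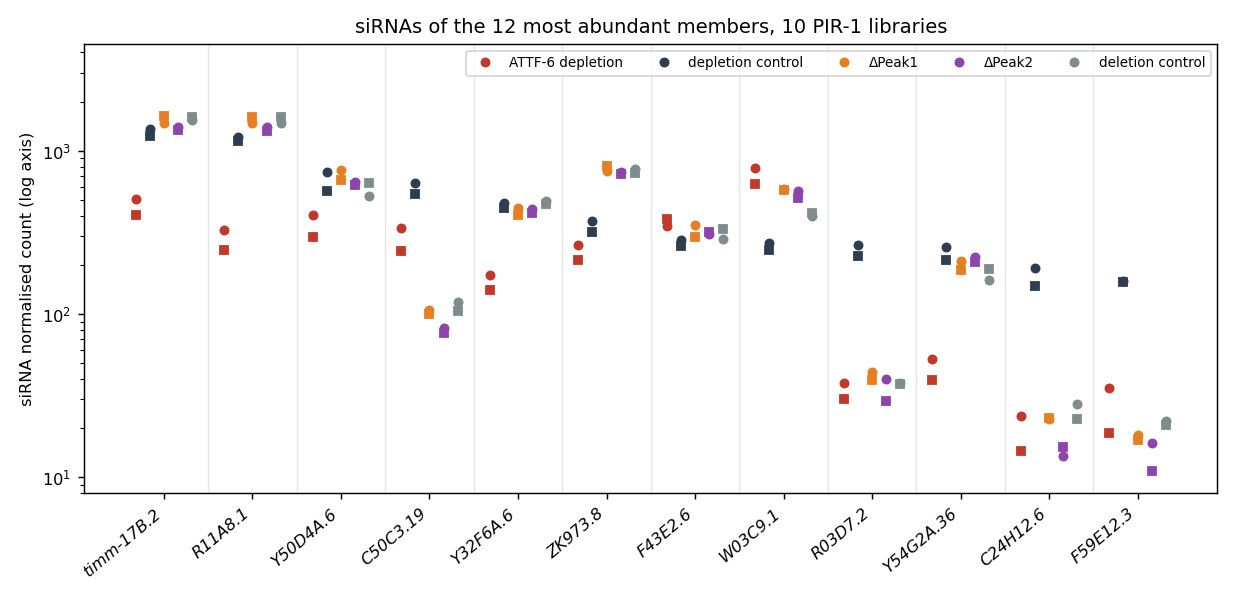
siRNA normalised counts of the 12 most abundant genes in each of the 10 PIR-1 libraries, on a log axis, with circles for replicate 1 and squares for replicate 2. Depleted animals lie below their controls for every gene except F43E2.6 and W03C9.1, and C50C3.19, R03D7.2, C24H12.6 and F59E12.3 are also low in all 6 libraries of the deletion experiment.

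The 6 called genes with the lowest fitted log2 fold changes were of modest level. R02E12.5, on the X chromosome, had no read in either depleted library, against 25 and 21 reads in the controls. Its level was at least 5.87-fold lower, taking 3 reads per depleted library as the limit that a count of 0 allows, and its place among the 6 rests on the value fitted to counts of 0. K07G5.4 had 2 reads in each depleted library, against 111 and 52 in controls. Scaled by the authors' library totals, the pooled reads were 29.7-fold lower (95% counting interval 11.4 to 110). srw-66 and srd-20, members of chemoreceptor gene families, were 29-fold (11.1 to 108) and 27-fold (10.3 to 100.3) lower on the same measure. C09F9.2 was 20.8-fold lower (7.90 to 77.6). Y116A8A.4 was at 2.27 and 1.69 normalised counts in depleted animals, against 42 and 33.0 in controls, 19.3-fold lower (12.1 to 32.9). In the parent strain all 6 lay between 0.751 and 7.27 normalised counts. For each of them except R02E12.5 these values were below both auxin-treated controls. Intervals and limits cover counting error only.

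The largest rises included a pair of pseudogenes. C50E10.1 was at 40.9 and 39.7 normalised counts in depleted animals, against 3.31 and 4.49 in controls, 10.3-fold higher. The pseudogene C47E8.10 was at 44.2 and 31.7, against 3.69 and 4.05, and the pseudogene F19B2.12 was at 63.0 and 45.5, against 6.49 and 4.94. H01G02.4 was at 135 and 115, against 20.0 and 17.3. Y66A7A.4 was 5.11-fold and Y87G2A.20 4.76-fold higher. For these 6 genes the depleted and control libraries did not overlap, and TMM scaling kept the direction of each. In the parent strain all 6 were at 11.8 normalised counts or less.

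Of the genes known for a role in sperm, spe-41 was the only one named for a spermatogenesis defect among the 300. It encodes a TRP calcium channel of spermatozoa, and it also goes by the name trp-3. Its siRNAs were at 52.7 and 45.3 normalised counts in depleted animals, against 94.9 and 93.7 in controls, 1.93-fold lower (log2 fold change -0.94 ± 0.11, SE, edgeR adjusted p = 0.000472). With TMM scaling the change was 0.19 and was not called. elt-1, a GATA factor of epidermal fate that also acts in sperm gene transcription, was at 2.69 and 1.69, against 5.6 and 6.52. peel-1, which encodes the toxin carried by sperm in a selfish genetic element, was at 1.65 and 3.63, against 4.07 and 4.27, and did not pass the test. Of the listed kinase and C-type lectin families, kin-14 was at 5.06 and 5.69, against 8.91 and 8.76, and was not called. clec-169 was at 3.10 and 1.94, against 7.51 and 6.29, and was lower, and the pseudogene clec-236 was at 3.92 and 3.15, against 4.20 and 3.60, and was not called.

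Most genes of a wider list of sperm formation and activation genes lay outside the 300. The list holds 41 names, of which trp-3 is a second name of spe-41 and was not counted again. siRNA reads were found under 35 names, 27 of these carried an Argonaute label, 21 of them ALG, and spe-41 and elt-1 alone were among the 300. After depletion 9 of the 34 tested were lower, 9 were higher and 16 were not called, where 54.6% of all features were lower and 12.7% higher. Among those higher were spe-9 and spe-12, which bear the spermatogenic label without an Argonaute label but were too low in the controls to be among the 300. spe-9, which encodes a sperm surface protein needed for fertilization, was at 16.4 and 14.3 normalised counts in depleted animals, against 1.15 and 1.57 in controls. spe-12, which acts in sperm activation, was at 5.78 and 6.54, against 0.255 and 0.899. None of the 18 list genes tested in the deletion strains was called by edgeR.

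Many of the 300 genes encode proteins with known roles outside sperm. The following groups were put together after the values were seen and cover 56 of the 109 genes that have a gene name. Their counts stand against 54.6% lower and 12.7% higher among all features (38.3% and 30.2% with TMM scaling), and nothing particular to a group is read from them. Of 11 receptor and channel genes, 7 were lower and none was higher by edgeR, with log2 fold changes from -4.78 to -0.33. Receptor and channel genes left out of this group include itr-1 at 0.63 and lrp-2 at -0.05, so its counts depend on the genes picked. deg-3 and des-2, which are transcribed together and encode subunits of an acetylcholine receptor channel, were both lower. deg-3 was at 2.07 and 0.484 normalised counts in depleted animals, against 10.7 and 7.19 in controls, and des-2 was at 2.27 and 1.69, against 9.29 and 8.09. With TMM scaling 6 of the 11 were lower and 1 was higher.

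Among 13 transporter genes, 7 were lower and none was higher by edgeR, a share lower that is close to the 54.6% of all features. Of the 4 members of the abt family of ABC transporters, the pseudogene abt-3 and the genes abt-1 and abt-2 were lower, with 4.54 and 3.87 normalised counts of abt-3 siRNAs in depleted animals, against 27.6 and 22.5 in controls. abt-5 was at 8.88 and 8.96, against 8.40 and 8.99. TMM scaling gave 2 lower and 4 higher among the 13.

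The 13 metabolic enzyme genes split, with 5 lower and 2 higher, and with TMM scaling 2 lower and 4 higher. bckd-1B, a subunit of the branched-chain ketoacid dehydrogenase, was at 13.2 and 8.96 normalised counts in depleted animals, against 51.8 and 48.8 in controls. sams-1, which encodes an S-adenosylmethionine synthetase, moved the other way, at 130 and 104 against 51.2 and 46.3. cbs-2, a cystathionine synthase gene, was at 13.4 and 20.8, against 10.9 and 8.32.

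Cytoskeletal and signalling genes also moved in both directions. ben-1, the β-tubulin gene targeted by benzimidazole drugs, was at 3.30 and 3.15 normalised counts in depleted animals, against 14 and 10.79 in controls. dhc-4, a dynein heavy chain gene, was 5.47-fold lower, whereas the myosin gene hum-6 and the kinesin gene klp-4 were 1.73-fold and 1.72-fold higher. bar-1, which encodes a β-catenin, was at 27.1 and 19.6, against 12.1 and 6.52. sma-10, a gene of BMP signalling, was at 21.9 and 17.9, against 7.25 and 10.79. mig-21, which acts in neuroblast migration, was at 1.45 and 1.94, against 8.53 and 9.44. With TMM scaling 4 of 7 cytoskeletal and 4 of 7 signalling genes were higher.

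Of 5 genes of the sperm and germ line group, 4 were lower, and 1 with TMM scaling. siRNAs to ife-5, which encodes an eIF4E cap-binding protein of the germ line, were at 23.8 and 21.1 normalised counts in depleted animals, against 70.1 and 59.1 in controls. wago-5, itself an Argonaute gene, was at 0.826 and 0.484, against 6.49 and 5.17. ggtb-1, a geranylgeranyl transferase subunit gene in none of these groups, was 15.0-fold lower after depletion, at 7.85 and 7.75 against 129 and 104, but 36.7% of its exon length overlaps a gene on the other strand.

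Rank in the control libraries went with the size of the change. The 100 highest genes had a median log2 fold change of -1.26, the next 100 of -0.59 and the lowest 100 of -0.21. The rank is the denominator of the ratio, so this order is a description. Pseudogenes had a median of -0.94 with 24 of 43 lower and 7 higher, and protein-coding genes had a median of -0.57 with 111 of 257 lower and 39 higher, where 54.6% of all features were lower and 12.7% higher. With TMM scaling 15 pseudogenes were lower and 13 higher (median 0.18), and 46 protein-coding genes were lower and 113 higher (median 0.56). The 217 genes that share no exon with another gene had 97 lower and 38 higher, and 45 lower and 99 higher with TMM scaling. The 16 X-linked genes had a median of -0.61 and the 284 autosomal genes one of -0.64.

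26G siRNAs form separate rows of the tables, which the choice of genes did not use. Over the 298 of the 300 genes with such a row, 26G siRNAs summed to 1956 and 1870 normalised counts in depleted libraries, against 1454 and 1592 in controls. The means were 1913 ± 60.9 and 1523 ± 97.4 (SD, n = 2 each), 1.26-fold higher without overlap, and the exact two-sided permutation p was 0.333, the smallest possible. Relative to miRNA reads the ratio was 1.09. There were 26.3 reads of 26G siRNAs per 100 siRNA reads at these genes in depleted animals and 13.6 in controls. For spermatogenic genes with the ALG label these figures were 194 and 249, for the oogenic genes 4.41 and 5.92, and for all genes 6.70 and 4.72. The siRNA level in the controls selected the 300 genes and the oogenic genes, so their ratios to siRNA reads are a description. The genes with the ALG label were not chosen by level.

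Single genes of this group held more 26G than siRNA reads, 61 of them in depleted animals and 30 in controls. The siRNA side of this comparison selected the genes in the controls, so the smaller control count is partly built in. F56D6.22, C30G7.3 and K12C11.5 led in the controls. F56D6.22 had 58.0 and 62.0 normalised counts of 26G siRNAs in depleted animals, against 63.8 and 72.8 in controls. K12C11.5 had 59.9 and 55.2, against 43 and 57.3. timm-17B.2 and R11A8.1, the genes with the most siRNAs, had 26G levels of 13.4 and 12.6 and of 10.9 and 9.92 in depleted animals, against 36.8 and 37.3 and 36.7 and 36.4 in controls. W03C9.1 had less 26G siRNA after depletion, at 11.4 and 12.6 against 30.7 and 29.9, although its siRNAs rose.

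The CIP-TAP libraries, 1 for each condition, gave sums of 7736 normalised counts after depletion and 13672 in the control, 1.77-fold lower, with no replicate check. Of the 290 genes that passed the level filter there, 135 (46.6%) were over 2-fold lower and 43 (14.8%) over 2-fold higher, against 55.0% and 17.3% of all siRNA rows. timm-17B.2 was at 621 (95% exact Poisson interval 596 to 647) after depletion and at 2440 (2397 to 2483) in the control. Y50D4A.6 was at 470 (448 to 492) and 817 (792 to 843), and R11A8.1 at 167 (154 to 180.4) and 779 (755 to 804). Y43F8C.9 was the gene whose CIP-TAP level most exceeded its PIR-1 level among the leading ones, at 677 (651 to 704) after depletion and 705 (682 to 729) in the control. The control value was 7.42 times its mean in the PIR-1 controls. Its PIR-1 values were 151 and 104 in depleted animals, against 99.9 and 90.3 in controls.

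The deletion strains ask whether losing a single ATTF-6 binding site on chromosome IV alters small RNAs. Each deletion is represented by 1 strain with 2 libraries. The lost site and any other difference of that strain from its parent cannot be told apart. At these genes few changes were called. Of the 280 genes tested, 4 were called in ΔPeak1, a share of 1.43%, against 0.149% of all features. In ΔPeak2 4 were called, again 1.43%, against 0.308% of all features. Between ΔPeak2 and ΔPeak1 4 were called, against 0.197% of all features. Among siRNA rows alone the shares were 0.337%, 0.617% and 0.419%. At an unadjusted edgeR p under 0.05 there were 26 genes in ΔPeak1 and 36 in ΔPeak2. The share of all features at that threshold is not given here, so nothing is read from these counts. Median log2 fold changes were -0.03 in ΔPeak1 and -0.19 in ΔPeak2, and those of all features tested were -0.03 and -0.14.

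The clearest case was T05G5.4 (chromosome III, 9748934 to 9749673). Its siRNAs were at 35.4 and 33.8 normalised counts in ΔPeak2, against 325 and 281 in the parent strain, 8.76-fold lower (log2 fold change -3.13 ± 0.11, SE, n = 2 each, edgeR adjusted p = 2.24e-05). In ΔPeak1 they were at 396 and 454 and were not called, and ΔPeak2 was 12.3-fold below ΔPeak1. In the depletion experiment the gene had 159 and 125 normalised counts in depleted animals, against 32.1 and 30.6 in controls. The controls of that experiment thus lay at the level of ΔPeak2 and not at that of the parent strain. Exons of T05G5.4 overlap T05G5.5 on the other strand over 17.2% of their length.

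C02F5.10 (chromosome III, 8248678 to 8249481) moved in opposite directions in the deletion strains. It was at 99.96 and 89.1 normalised counts in ΔPeak1, 5.15 and 6.54 in ΔPeak2, and 18.5 and 20.0 in the parent strain. ΔPeak1 was 4.91-fold higher (edgeR adjusted p = 0.000241) and ΔPeak2 3.29-fold lower (edgeR adjusted p = 0.0148) than the parent. The log2 difference of ΔPeak2 from ΔPeak1 was -4.01 ± 0.18 (SE).

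M176.4 and C36F7.5 were called in ΔPeak1 only, and differed between the deletion strains. M176.4, on chromosome II, was at 83.2 and 79.9 normalised counts in ΔPeak1, 29.6 and 30.9 in ΔPeak2, and 28.1 and 32.8 in the parent strain. C36F7.5, on chromosome I, was at 22.7 and 18.2 in ΔPeak1, 54.7 and 48.2 in ΔPeak2, and 63.7 and 70.6 in the parent strain. ΔPeak1 lay outside the other groups for both genes.

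ZC190.8 was below the parent strain, and T14G10.8 above it, in every library of both deletion strains. ZC190.8, on chromosome V, was at 12 and 8.80 normalised counts in ΔPeak1, 17.5 and 18.3 in ΔPeak2, and 49.9 and 41.3 in the parent strain. It was called lower in both, and in the depletion experiment it was at 29.5 and 24.0 in depleted animals, against 15.8 and 14.2 in controls. T14G10.8 was at 77.6 and 75 in ΔPeak1, 95.9 and 87.4 in ΔPeak2, and 44 and 44.8 in the parent strain. It was called higher in ΔPeak2 and not in ΔPeak1 (edgeR adjusted p = 0.0163 and 0.0867), and the difference between the strains did not pass the test (edgeR adjusted p = 0.981). Both strains are compared with the same 2 parent libraries, and without either parent library no gene was called in ΔPeak1 and T05G5.4 alone was called in ΔPeak2. Without either ΔPeak2 library, 2 genes were called in ΔPeak1 and T05G5.4 alone in ΔPeak2.

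**Figure D4:**
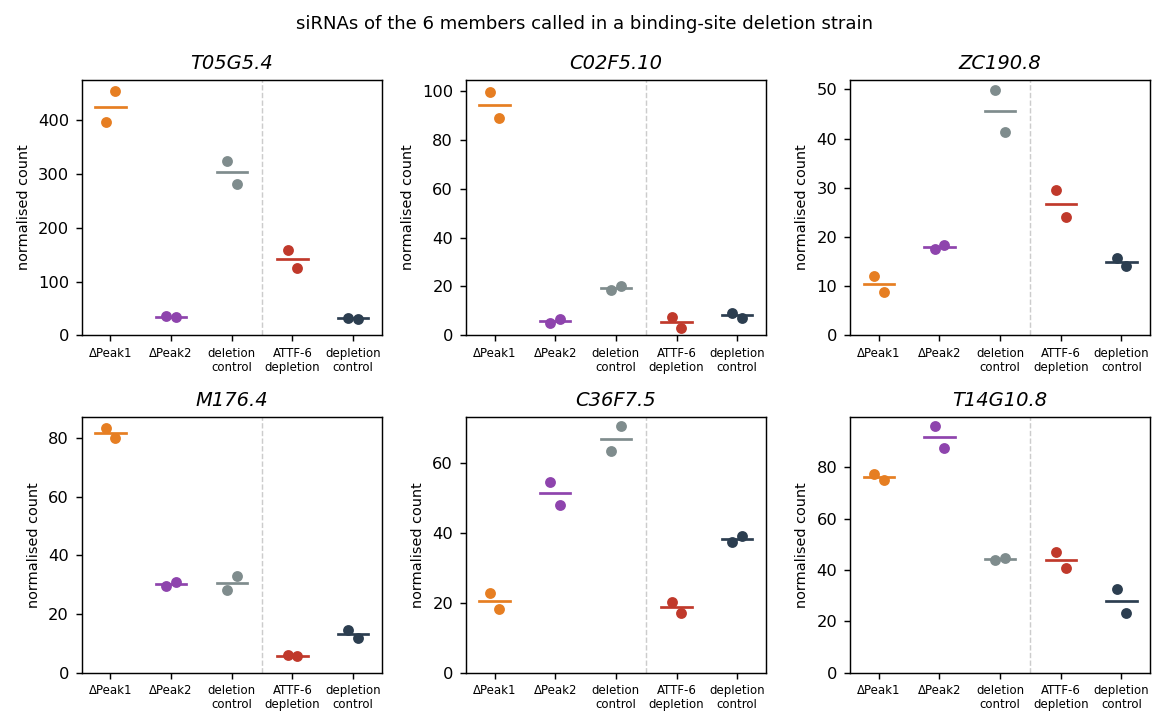
siRNA normalised counts of the 6 genes called in a binding-site deletion strain, with a point per PIR-1 library and a line at the group mean, and with the depletion experiment to the right of the dashed line. T05G5.4 is at 33.8 to 35.4 in ΔPeak2 and at 281 to 454 in ΔPeak1 and the parent strain, while C02F5.10 is at 89.1 or more in ΔPeak1 and at 20.0 or less elsewhere.

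None of these genes lies near the deleted intervals. T14G10.8, the only one on chromosome IV, is 3.56 Mb from the ΔPeak1 interval and 4.24 Mb from that of ΔPeak2. The gene of the 300 nearest to the ΔPeak1 interval is C08F11.6, at 72.3 kb, with a log2 fold change of 0.10 in ΔPeak1. For ΔPeak2 it is Y41E3.8, at 639.8 kb, with a log2 fold change of -0.15. Neither was called.

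The abundant genes varied less between the deletion strains and their parent. timm-17B.2 was at 1479 and 1626 normalised counts in ΔPeak1, 1404 and 1339 in ΔPeak2, and 1540 and 1608 in the parent strain. spe-41 was at 104 and 82.9 in ΔPeak1, 113 and 106 in ΔPeak2, and 107 and 115 in the parent strain. Log2 fold changes of the 12 highest genes ran from -0.30 to 0.49 in ΔPeak1 and from -0.83 to 0.40 in ΔPeak2, and none was called.

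26G siRNAs of the 300 genes summed to 319.5 and 319.0 in ΔPeak1, 267 and 244 in ΔPeak2, and 301 and 310 in the parent strain. ΔPeak2 was 1.2-fold lower without overlap (exact permutation p = 0.333). 26G siRNAs of the spermatogenic genes with the ALG label were lower as well in ΔPeak2, at 189 and 173, against 478 and 418 in the parent strain, and were at 403 and 292 in ΔPeak1. Their part in the siRNA changes of ΔPeak2 was not tested.

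The controls of the depletion experiment and the parent strain differed at these genes, in genotype, auxin and library set together, which cannot be told apart. The ratio of the parent strain to the auxin-treated controls had a median of 0.574, partly fixed by the choice of genes on those controls, and 17 genes were more than 10 times lower in the parent strain. F14E5.8 was at 0.590 and 1.25 normalised counts in the parent strain, against 139 and 140 in the auxin-treated controls. gipc-1 and gipc-2 were at 0 to 0.25 in the parent strain, against 9.16 and 7.19 for gipc-1 and 5.6 and 5.17 for gipc-2 in the auxin-treated controls. The sum of 26G siRNAs of the 300 genes was 4.99-fold higher in the auxin-treated controls than in the parent strain, and that of the spermatogenic genes with the ALG label 26.1-fold higher.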

How the data were processed

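The authors trimmed reads with Trim Galore, mapped them with Bowtie to the WormBase WS279 genome and its exon junctions, allowing perfect matches only, and used BEDTools for feature assignment. The deposited files list estimated counts for each feature, some of them fractional. The deposited normalised signal is the count divided by 1 constant per library and scaled to a common size, and the authors describe that constant as the mapped reads. These constants ran from 3992305 to 7857706 in PIR-1 libraries. Feature counts summed to more than the constant, so which reads it holds was not settled.

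Here, estimated counts were rounded to whole numbers. The quasi-likelihood test of edgeR (version 4.0.16, under R version 4.3.3) took the authors' constants as library sizes. Features with a mean of at least 0.5 normalised counts were kept, and p-values adjusted by Benjamini-Hochberg over all kept features. The depletion fit used 4 libraries and the deletion fit 6. SEs come from log2(normalised count + 0.5) of the libraries. The procedure was tested on simulated counts with a small set of changed features, balanced up and down, and a fixed spread. That simulation holds no shift of most features, so it does not cover the scaling question of the depletion comparison. TMM, miRNA-read scaling, DESeq2 1.42.0, other filters, blocks and omission of single libraries were alternatives. Summaries used Python 3.11.15, pandas 2.3.3 and scipy 1.17.1.

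Genes and lists were chosen with earlier results of these data known. Genes named were the 12 highest in controls, the 6 largest fitted falls and 6 largest fitted rises among called genes without overlap, those called in a deletion strain, spe- and fer- genes and listed sperm families, the 4 highest in the control CIP-TAP library and those at the threshold; others were chosen after their values were seen. Coordinates are those of WBcel235, joined by gene identifier for all 300 genes. The labels name no build for the deleted intervals, which were read as WBcel235. No siRNA sequences are shown.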

Additional observations from a re-analysis of the deposited data

Results flagged for a closer look

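For 4 of the 300 genes the deletion strains differed from each other in the edgeR contrast between them. The log2 fold change of ΔPeak2 over ΔPeak1 was -3.62 for T05G5.4 (edgeR adjusted p = 3.28e-06), -4.01 for C02F5.10 (adjusted p = 1.33e-05), -1.43 for M176.4 (adjusted p = 0.00239) and 1.33 for C36F7.5 (adjusted p = 0.0114). In each of them both ΔPeak2 libraries lay on 1 side of both ΔPeak1 libraries. Without either ΔPeak2 library the contrast was not called for M176.4 (adjusted p 0.145 and 0.176) or C36F7.5 (0.194 and 0.399). That of C36F7.5 was also not called without either parent library (0.134 and 0.146) or with miRNA scaling (0.0513). T05G5.4 and C02F5.10 kept the call in each alternative run.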

How the results depend on the processing

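Counts of genes lower after depletion were 61 with TMM scaling, 46 with DESeq2 and 69 among the 100 highest genes, and stayed between 104 and 141 when single libraries were left out. Counts of genes higher after depletion were 126 with TMM scaling, 86 with DESeq2, 107 against the parent strain, 13 among the 100 highest genes and 246 over all genes with the labels, and ran from 28 to 51 when single libraries were left out. The median log2 fold change after depletion was 0.49 with TMM scaling, -0.84 with miRNA scaling, 0.42 with DESeq2, 0.13 against the parent strain, -1.26 among the 100 highest genes and 0.32 over all genes with the labels. The log2 ratio of the sums was -0.82 with miRNA scaling. Beside the counts, TMM scaling had 38.3% of all features lower and 30.2% higher. The comparison with the parent strain had 55.0% lower and 21.4% higher. For the 100 highest genes and all genes with the labels, the shares are 54.6% and 12.7%, those of the main fit. Shares of all features under the other settings are not given here, and nothing is read from the counts. In ΔPeak1, 8 genes were called without a filter and 0 to 6 when single libraries were left out. In ΔPeak2, 1 to 5 were called when single libraries were left out. The median in ΔPeak2 was -0.069 with TMM scaling, -0.38 with miRNA scaling, -0.051 with DESeq2, -0.12 with a stricter filter, -0.21 with all 10 libraries in 1 fit and from -0.23 to -0.17 when single libraries were left out. The log2 ratio of the sums in ΔPeak2 was -0.31 with miRNA scaling. The causes were not tested, apart from the smaller or larger sets of genes that some alternatives use by construction.

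Reversals of named genes after depletion, on the log2 scale, were 0.23 with TMM scaling and 0.15 with DESeq2 for Y50D4A.6, 0.10 and 0.016 for C50C3.19, 0.61 and 0.53 for ZK973.8, 0.19 and 0.10 for spe-41, 0.41 and 0.35 for kin-14, 0.97 and 0.90 for clec-236, 0.10 and 0.0086 for C36F7.5, and 0.50 and 0.39 for C02F5.10. Against the parent strain they were 1.38 for C50C3.19, 0.33 for F59E12.3, 0.12 for clec-236, -1.10 for T05G5.4, -0.016 for T14G10.8 and -0.77 for ZC190.8. M176.4 in ΔPeak2, near 0 throughout, was at 0.11 with TMM scaling, 0.13 with DESeq2, 0.11 without parent replicate 2 and 0.03 without ΔPeak2 replicate 1.

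Replicates share only a number. With that number as a replicate block, 139 genes were lower and 48 higher after depletion, 4 were called in ΔPeak1 and 1 in ΔPeak2. Deviations of same-numbered libraries correlated at 0.32, -0.07 and -0.11 in the 3 pairs of groups. A block with crossed numbers, added after seeing the data, gave 4 calls in ΔPeak1 and 4 in ΔPeak2.

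For the 35 genes named by rule there were 451 alternative values in the depletion comparison. Of these, 396 kept their direction and side of the threshold and 22 were reversed. For the 6 genes called in a deletion strain, 68 of 84 were kept in ΔPeak1 and 77 of 84 between the deletion strains. In ΔPeak2 65 of 84 were kept and 4 were reversed. These genes were named for their level, change, call or family, so the tallies do not describe the 300 genes. The medians and counts over the 300 genes are outside the tallies. With 2 libraries a group, genes of few reads could not be told from their spread, and 20 of the 300 genes were too low for the deletion fit.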
